A study of Mus musculus with 12 samples.

Results

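The aminoacyl-tRNA synthetase genes are 36 of the 31091 genes in the table of granule cell progenitors at postnatal day 3 (P3). They were chosen by name and biotype: protein-coding genes whose symbol joins the letter of an amino acid to "ars", with an optional number or an l before a final 2, together with Farsa, Farsb, Fars2 and Eprs. The rule used no measured value. It divided the genes into 20 cytosolic synthetases and 16 whose symbols end in 2, the ending used for mitochondrial enzymes. Tarsl2 fell in the second set by its ending, although its product is known as a cytosolic threonyl-tRNA synthetase. The mitochondrial synthetase genes Ears2 (glutamate) and Pars2 (proline) were not matched by the rule and are given separately.

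RNA of granule cell progenitors, which divide after birth and give rise to the granule neurons of the cerebellum, was sequenced from mice with a Znhit3 conditional knockout (cKO) and from mice labelled both control and WT. All values are from P3, with 3 libraries per genotype. The comparison asked what loss of Znhit3, an assembly factor of small nucleolar ribonucleoproteins, does to the transcripts of these progenitors. The labels name no allele, no Cre driver and no strain, and do not say whether the libraries came from separate animals, so p-values measure the spread between these libraries, which may be technical. The series also has P6 samples, which were not analysed here.

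An aminoacyl-tRNA synthetase joins an amino acid to its tRNA, with ATP as the energy source, and thereby sets which amino acid a codon is read as. Nuclear genes encode the enzymes of both compartments, and for most amino acids the cytosol and the mitochondrion have an enzyme each. Lysyl-tRNA synthetase (Kars) and glycyl-tRNA synthetase (Gars) are known to serve both compartments from a shared gene, and mitochondria lack a glutaminyl-tRNA synthetase and make glutaminyl-tRNA through an amidotransferase. Several cytosolic enzymes sit in a multi-synthetase complex held by scaffold proteins. Many cytosolic synthetase genes are known targets of ATF4, the transcription factor that is translated when amino acids are short and eIF2 is phosphorylated, and inherited defects in synthetases of either compartment are known to affect the nervous system.

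The cytosolic promoters carried a sequence feature that the rule did not use. RefSeq promoters on GRCm38.p6, 250 bases before to 50 bases after the annotated start, were matched by symbol for 13 cytosolic genes and 14 of the second set. The ATF4 response core TGATGNAA, searched on both strands (its antisense form reads TTNCATCA), was present in promoters of 5 of 13 cytosolic genes (38.5%) and of 0 of 14 of the second set, against 3.97% of 32851 promoters of the same length. A member gene was counted if any of its promoters matched, while the share over all promoters counts each promoter separately. The 5 genes were Gars, Aars, Yars, Iars and Tars, and Aars held 2 matches. They encode the enzymes for glycine, alanine, tyrosine, isoleucine and threonine. The windows of 60 bases around the 6 matches are shown because they are the letters that set these promoters apart from those of the second set. They run 5′ to 3′ on the gene's strand, with the match in capitals.
Gars (chr6:55037945-55038004, plus strand): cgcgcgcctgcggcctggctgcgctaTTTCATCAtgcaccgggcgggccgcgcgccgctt
Aars, first match (chr8:111033704-111033763, plus strand): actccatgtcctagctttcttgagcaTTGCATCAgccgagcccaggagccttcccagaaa
Aars, second match (chr8:111033812-111033871, plus strand): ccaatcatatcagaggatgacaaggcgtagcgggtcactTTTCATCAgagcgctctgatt
Yars (chr4:129189873-129189932, plus strand): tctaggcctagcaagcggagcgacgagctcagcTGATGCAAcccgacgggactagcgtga
Iars (chr13:49682100-49682159, plus strand): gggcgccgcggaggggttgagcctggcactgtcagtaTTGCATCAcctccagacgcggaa
Tars (chr15:11399640-11399699, minus strand): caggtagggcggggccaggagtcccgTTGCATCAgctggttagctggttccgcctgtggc

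The E-box CACGTG, which is its own reverse complement and does not overlap these matches, was searched after values had been seen. Counted in the same way, it was present in promoters of 4 of 13 cytosolic genes (30.8%), Farsb, Aars, Iars and Tars, and of 0 of 14 of the second set, against 7.15% of all promoters. A match is a description of letters, and no factor was measured at these promoters. The 250 bases before the start are shown for Farsb, Tarsl2 and Mars2, which are 3 of the 4 members that passed the test between genotypes, with the E-box of Farsb in capitals.
Farsb (chr1:78488898-78489147, minus strand): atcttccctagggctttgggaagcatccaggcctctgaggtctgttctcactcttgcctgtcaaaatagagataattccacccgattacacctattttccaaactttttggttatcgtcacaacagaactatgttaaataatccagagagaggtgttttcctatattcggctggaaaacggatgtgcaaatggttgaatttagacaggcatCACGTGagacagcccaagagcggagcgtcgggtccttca
Tarsl2 (chr7:65644648-65644897, plus strand): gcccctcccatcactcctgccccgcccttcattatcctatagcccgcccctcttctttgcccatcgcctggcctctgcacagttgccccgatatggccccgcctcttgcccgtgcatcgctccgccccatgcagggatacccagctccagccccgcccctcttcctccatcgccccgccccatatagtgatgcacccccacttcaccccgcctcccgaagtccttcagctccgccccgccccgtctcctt
Mars2 (chr1:55236927-55237176, plus strand): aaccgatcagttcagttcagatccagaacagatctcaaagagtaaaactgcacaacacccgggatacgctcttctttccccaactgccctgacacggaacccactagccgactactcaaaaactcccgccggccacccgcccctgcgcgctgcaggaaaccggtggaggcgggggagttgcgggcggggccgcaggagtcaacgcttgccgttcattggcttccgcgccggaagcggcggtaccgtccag

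The 6 libraries held between 29119803 and 52961445 reads, recovered from the deposited FPKM values (fragments per kilobase of gene length, scaled to the size of the library). Every member had at least 332 reads in every library, far above the floor of 3 reads, which in a gene of 1 kb was 0.057 to 0.10 FPKM. Znhit3, the targeted gene, measured 4.03, 4.01 and 4.57 FPKM in cKO libraries, against 9.15, 8.62 and 8.58 FPKM in control libraries. The exact two-sided permutation test on Znhit3 gave p = 0.1, the smallest that 3 against 3 libraries allow. Granule lineage markers were present at up to 327 FPKM (Mfap4 in control), and their summed level was 1111 to 1139 FPKM in cKO libraries and 1350 to 1452 FPKM in control libraries, with 5 of 11 lower in cKO by the test described next. All 9 endothelial markers were higher in cKO, with sums of 240 to 256 FPKM in cKO and 135 to 148 FPKM in control. Also called higher were 6 of 8 interneuron, 7 of 7 pericyte, 5 of 8 microglia, 5 of 6 oligodendrocyte lineage, 4 of 7 astroglia, 4 of 5 erythroid and 2 of 2 tested Purkinje cell markers (of 6 listed), with 1 interneuron marker called lower. Of 6 tested choroid plexus markers 5 were called lower and 1 higher. Over all tested genes 13.4% were called higher and 5.74% lower. No marker was at 0 in every library. The part of these markers in the synthetase values was not tested, and in bulk RNA fewer cells of a type and less RNA per cell cannot be told apart.

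Genes whose mean reached 1 FPKM were tested with limma on log2(FPKM + 1), cKO minus control, with Benjamini-Hochberg adjustment over all 13538 tested genes. A gene was called at an adjusted p under 0.05. On this scale the change of low genes is understated. All 36 synthetase genes passed the filter, 4 were called (2 lower, 2 higher) and 32 were not. Among all tested genes 19.1% were called, 13.4% higher and 5.74% lower, so the share of members called was not above that of all tested genes.

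The cytosolic synthetases were well expressed, with group means per gene between 8.38 FPKM (Cars in cKO) and 57.6 FPKM (Gars in control). Levels of the second set were lower, between 1.70 FPKM (Wars2 in control) and 12.2 FPKM (Rars2 in cKO). FPKM is per deposited gene length, and a ratio of levels between genes rests on these lengths, which were not checked and differ between partners (11294 bases for Mars2 and 3423 for Mars1). For each of 15 amino acids with a gene for either compartment, the cytosolic gene had the higher FPKM. The ratio of cytosolic to mitochondrial FPKM had a median of 3.49 in cKO, from 2.04 for Iars over Iars2 to 23.6 for Nars over Nars2, and a median of 4.44 in control, from 2.35 to 22.9 for the same pairs. The medians fell on different pairs, so they do not give the change of a typical pair. Aars over Aars2 gave the median in cKO and was 3.31 in control. Sars over Sars2 gave the median in control and was 4.19 in cKO. The summed FPKM of the 20 cytosolic genes was 549.8, 563.1 and 560.7 in cKO libraries, against 585.8, 587.7 and 554.1 in control libraries. The sum of the second set was 91.0, 94.7 and 95.4 in cKO libraries, against 88.9, 92.5 and 88.1 in control libraries. In both sets the sums of the genotypes overlapped.

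**Figure D1:**
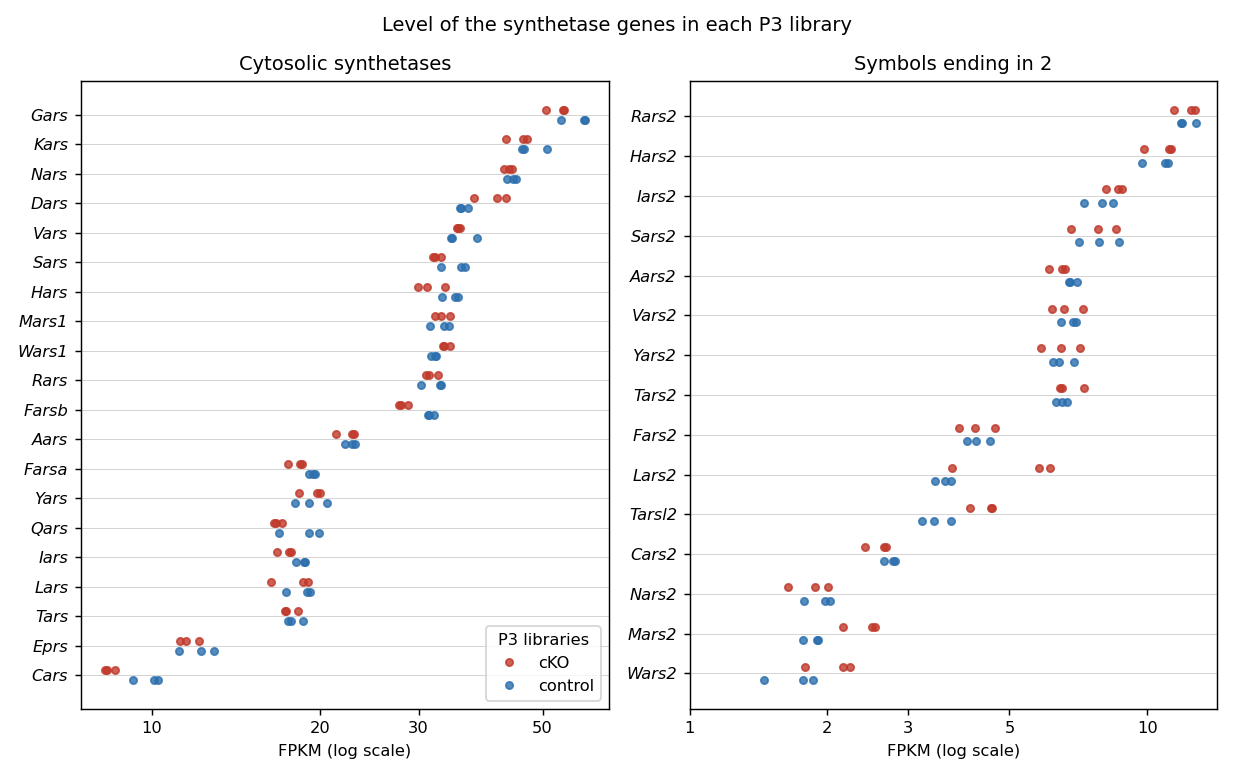
FPKM (log axis) of 35 synthetase genes in each P3 library, 1 point per library, cKO above control in each row, genes ordered by level. Gars is at the top of the cytosolic panel with 50.6 to 59.5 FPKM and Cars at its foot with 8.24 to 10.2 FPKM. In most rows the points of the genotypes overlap.

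Among the cytosolic synthetases Farsb and Cars fell and none rose, 2 of 20 lower beside 5.74% of all tested genes. Farsb encodes the beta subunit of phenylalanyl-tRNA synthetase (ENSMUSG00000026245, chromosome 1, 78394612 to 78465534, minus strand, as deposited). It measured 28.7, 28.0 and 27.7 FPKM in cKO libraries, against 32.0, 31.3 and 31.2 FPKM in control libraries. The ranges were narrow and apart, and the mean was 10.6% lower in cKO. The difference was -0.16 ± 0.04 (SE), with an adjusted p of 0.027 in limma. Farsb shares 250 identical transcript bases in GENCODE M21 with Sgpp2, which lies on the opposite strand and averaged 3.83 FPKM in cKO and 3.77 FPKM in control.

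Cars encodes cysteinyl-tRNA synthetase (ENSMUSG00000010755, chromosome 7, 143110967 to 143153827, minus strand, as deposited). It measured 8.58, 8.32 and 8.24 FPKM in cKO libraries, against 10.1, 10.2 and 9.24 FPKM in control libraries. The cKO values lay close together below all control values, of which control replicate 3 was the lowest, and the mean was 15.0% lower. The difference was -0.21 ± 0.05 (SE), with an adjusted p of 0.027 in limma. Cars shares 214 identical transcript bases with the processed pseudogene Gm15580 in GENCODE M21. The calls of Farsb and Cars both rested on small differences. Leaving out any library other than cKO replicate 1 ended the call of Farsb, with adjusted p between 0.066 and 0.10, and leaving out cKO replicate 2 or 3 or control replicate 1 or 2 ended that of Cars, with adjusted p between 0.068 and 0.089.

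The other cytosolic genes were not called, and their differences were between -0.14 (Qars) and 0.17 (Dars). The sign was negative for 16 of the 20, beside 42.1% of all tested genes, and the median was -0.046, beside 0.032 over all tested genes. The count of negative signs was between 11 with TPM scaling and 18 with upper quartile scaling or a length trend removed. The median over all tested genes was 0.075, -0.0004 and 0.0013 in these 3 settings. The cKO libraries were all below the control libraries for 4 genes (Farsb, Farsa, Iars and Cars), beside 13.2% of tested genes, and all above for 2 (Dars and Wars1), beside 27.3%. The genotypes overlapped in the other 14.

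Of the 3 most abundant cytosolic genes that were not called, Gars measured 50.6, 54.4 and 54.6 FPKM in cKO libraries, against 59.5, 59.3 and 54.0 FPKM in control libraries. Control replicate 3 fell inside the cKO range, and the adjusted p was 0.18. Kars measured 46.8, 46.0 and 43.1 FPKM in cKO libraries, against 50.9, 46.0 and 46.4 FPKM in control libraries, with an adjusted p of 0.37. Nars, the asparaginyl enzyme, measured 44.1, 42.7 and 43.6 FPKM in cKO libraries, against 44.9, 44.2 and 43.2 FPKM in control libraries. The libraries of Nars differed little in either genotype: its difference was -0.019, with a 95% interval of -0.11 to 0.07, and it was positive (0.034 and 0.021) with quantile normalization and TPM scaling.

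The partner subunit of Farsb, Farsa, was named after its values were seen, as were Iars, Dars, Wars1 and Qars. Farsa measured 18.6, 18.4 and 17.5 FPKM in cKO libraries, against 19.4, 19.6 and 19.1 FPKM in control libraries, a difference of -0.09 with an adjusted p of 0.16. Its libraries did not overlap between genotypes, but the test was not passed. Iars measured 17.6, 17.8 and 16.8 FPKM in cKO libraries, against 18.8, 18.7 and 18.1 FPKM in control libraries, with an adjusted p of 0.17. A stretch of 1656 bases of Iars transcripts has a copy at 96.0% identity in the processed pseudogene Gm4849 in GENCODE M21, so reads of Iars could be shared with it.

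Dars, the aspartyl enzyme, had the largest positive difference among the cytosolic genes. It measured 37.7, 41.5 and 42.9 FPKM in cKO libraries, against 36.8, 35.8 and 35.6 FPKM in control libraries. The lowest cKO library, replicate 1, was just above the highest control library. The difference was 0.17 ± 0.05 (SE) with an adjusted p of 0.062. Without cKO replicate 1 the difference was 0.22 with an adjusted p of 0.020. Over the 12 alternatives that kept all libraries the adjusted p of Dars was 0.018 to 0.14, and Dars was called higher in 5. Wars1, the tryptophanyl enzyme, measured 33.4, 34.2 and 33.2 FPKM in cKO libraries, against 32.3, 32.1 and 31.6 FPKM in control libraries, with an adjusted p of 0.23. Qars, the glutaminyl enzyme, averaged 16.8 ± 0.32 FPKM in cKO and 18.6 ± 1.5 FPKM in control (SD, n = 3 each), where control replicate 3 alone was low at 16.9 FPKM. Its adjusted p was 0.14, and 0.040 without that library.

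**Figure D2:**
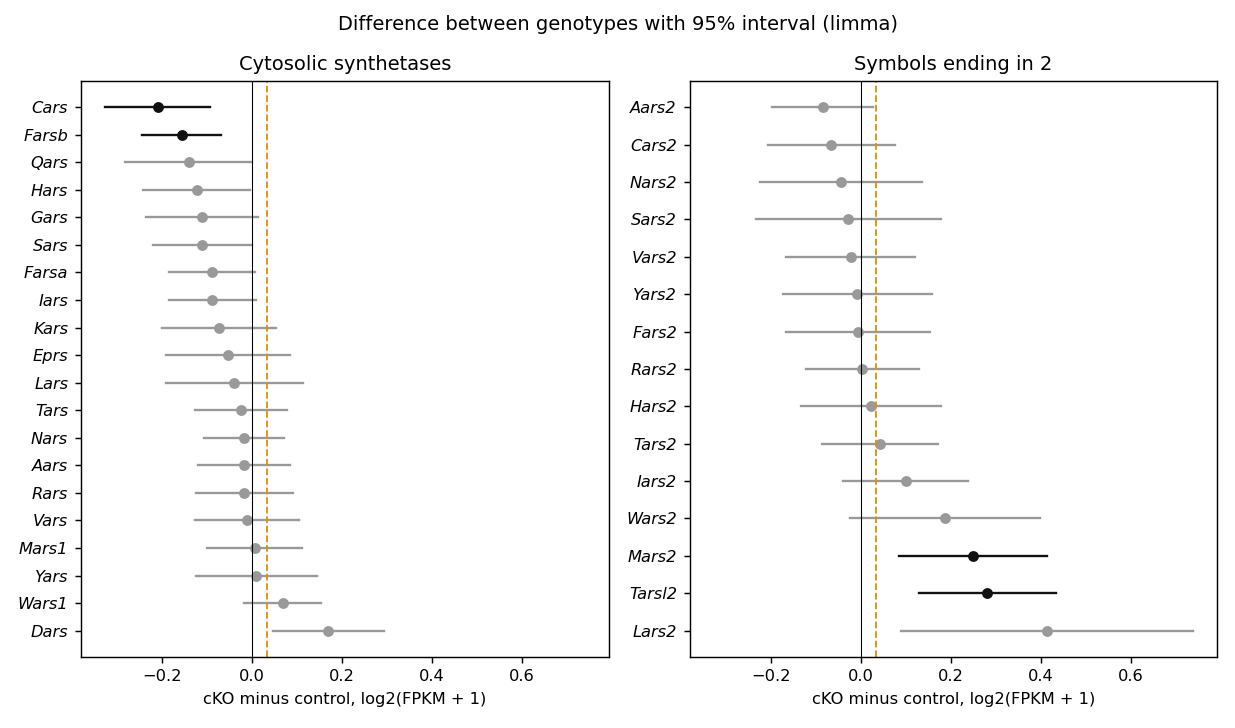
Difference between genotypes of 35 synthetase genes, cKO minus control in log2(FPKM + 1) units, with the 95% interval from limma; black marks called genes, grey the others, and the dashed line the median of all tested genes (0.032). The called cytosolic genes are Cars (-0.21) and Farsb (-0.16), and the called genes of the second set are Mars2 (0.25) and Tarsl2 (0.28).

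By role, none of the 8 cytosolic genes whose enzymes belong to the multi-synthetase complex (Kars, Dars, Mars1, Rars, Lars, Iars, Qars and Eprs) was called, and 6 had a negative sign, with a median of -0.046. Of the 12 outside the complex 2 were called, both lower, and 10 had a negative sign, with a median of -0.057. Over all tested genes 19.1% were called, 5.74% were called lower and 42.1% had a negative sign. By fold of the catalytic domain, 1 of 9 class I and 1 of 10 class II cytosolic genes was called, with Eprs, which joins an enzyme of either class, left out. The difference between these subsets was not tested. Of the 3 scaffold genes of the complex, Eef1e1 fell, with 15.6, 14.4 and 15.4 FPKM in cKO libraries, against 17.7, 16.7 and 17.5 FPKM in control libraries. Its difference was -0.19 with an adjusted p of 0.032, and leaving out any library other than cKO replicate 1 gave an adjusted p between 0.055 and 0.12. Aimp1, named after its values were seen, measured 13.0, 12.6 and 13.2 FPKM in cKO libraries, against 14.3, 15.8 and 14.0 FPKM in control libraries, and was not called (adjusted p = 0.056). It was called in 7 of the 12 alternatives that kept all libraries, with adjusted p of 0.023 to 0.12. The authors' comparison, described next, called Eef1e1 and Aimp1 lower (log2 fold changes -0.25 and -0.24), and not the remaining scaffold gene.

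A comparison in the authors' deposited table, which has its own normalization, called 8 cytosolic synthetase genes lower in cKO and none higher at the same threshold. The background there was 13.4% lower and 12.1% higher among the tested genes. The 8 were Hars, Farsa, Cars, Farsb, Gars, Qars, Iars and Sars, with the authors' log2 fold changes in their deposited table between -0.15 for Iars and -0.29 for Cars. The median of the authors' log2 fold changes over the 20 cytosolic genes in their deposited table was -0.10, and over the second set -0.041. Their median over all genes is not given here, so these medians have no background beside them. Of the second set the authors' comparison called 2 higher, Tarsl2 and Mars2, and none lower. Hars and Hars2 overlap on opposite strands and share 195 identical transcript bases in GENCODE M21. Whether strand was used in counting is not given in the sources used here, so reads of such partners cannot be told apart.

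Of the 16 genes whose symbols end in 2, Tarsl2 and Mars2 rose and none fell, beside 13.4% of all tested genes called higher. Tarsl2 (ENSMUSG00000030515, chromosome 7, 65294646 to 65341839, plus strand, as deposited) measured 4.55, 4.10 and 4.59 FPKM in cKO libraries, against 3.42, 3.73 and 3.22 FPKM in control libraries. The genotypes were apart, with cKO replicate 2 nearest to the control range, and the mean was 27.6% higher in cKO. The difference was 0.28 ± 0.07 (SE), with an adjusted p of 0.024 in limma. Leaving out cKO replicate 1 or 3 or control replicate 1 or 3 ended the call, with adjusted p between 0.059 and 0.077. Tarsl2 overlaps Tm2d3 on the same strand, which measured 19.5 FPKM in cKO and 20.4 FPKM in control.

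Mars2 encodes the mitochondrial methionyl-tRNA synthetase (ENSMUSG00000046994, chromosome 1, 55276336 to 55287629, plus strand, as deposited). It measured 2.16, 2.51 and 2.54 FPKM in cKO libraries, against 1.91, 1.77 and 1.899 FPKM in control libraries. The control libraries were close together and cKO replicate 1 was the nearest to them, and the mean was 29.2% higher in cKO. The difference was 0.25 ± 0.07 (SE), with an adjusted p of 0.045 in limma. Leaving out any library other than cKO replicate 1 ended the call, with adjusted p between 0.079 and 0.14. Over the alternatives that kept all libraries the adjusted p was 0.012 to 0.073 for Farsb, 0.0084 to 0.064 for Cars, 0.0026 to 0.080 for Tarsl2 and 0.0035 to 0.16 for Mars2. The cytosolic partner of Mars2, Mars1, averaged 33.0 FPKM in cKO and 32.9 FPKM in control.

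Lars2, the mitochondrial leucyl enzyme, had the largest positive difference of all 36 members and was not called (ENSMUSG00000035202, chromosome 9, 123195992 to 123291731, plus strand, as deposited). It measured 3.74, 5.80 and 6.12 FPKM in cKO libraries, against 3.44, 3.72 and 3.62 FPKM in control libraries. Replicates 2 and 3 of cKO were high, while cKO replicate 1 lay just above the control range. The difference was 0.41 ± 0.14 (SE) with an adjusted p of 0.075, and without cKO replicate 1 it was 0.60 with an adjusted p of 0.0033. Lars2 was also called with array weights, with voom and among protein-coding genes only, and its adjusted p was 0.0052 to 0.21 over the alternatives that kept all libraries. Rn18s-rs5, a ribosomal RNA gene looked up after this pattern was seen, was high in the same libraries. It measured 438.6, 613.0 and 696.7 FPKM in cKO libraries, against 441.6, 336.9 and 397.5 FPKM in control libraries. Per the labels, poly(A) RNA was selected, and the part of ribosomal RNA in the Lars2 values was not tested.

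**Figure D3:**
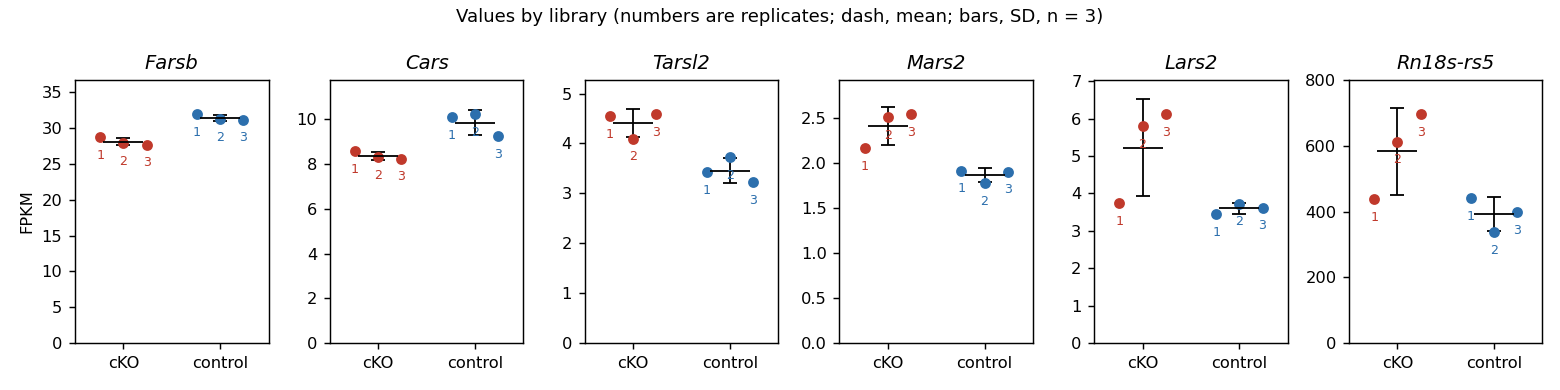
FPKM of the 4 called synthetase genes, of Lars2 and of the ribosomal RNA gene Rn18s-rs5 in each library (linear axes from 0; numbers give the replicate; dash, mean; bars, SD, n = 3). Farsb and Cars are lower and Tarsl2 and Mars2 higher in every cKO library than in any control library. For Lars2 and Rn18s-rs5, cKO replicates 2 and 3 are high (5.80 and 6.12 FPKM for Lars2).

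The 3 most abundant genes of the second set that were not called differed little between genotypes. Rars2 measured 12.4, 11.4 and 12.7 FPKM in cKO libraries, against 11.9, 11.9 and 12.8 FPKM in control libraries. Hars2 measured 9.86, 11.3 and 11.2 FPKM in cKO libraries, against 11.1, 10.9 and 9.75 FPKM in control libraries. Their differences were 0.0028 (95% interval -0.12 to 0.13) and 0.023 (-0.13 to 0.18), and both were negative under some alternatives. Iars2 measured 8.63, 8.81 and 8.12 FPKM in cKO libraries, against 7.96, 8.43 and 7.28 FPKM in control libraries, a difference of 0.10 with an adjusted p of 0.27. It shares 2034 identical transcript bases in GENCODE M21 with Rab3gap2, which lies on the opposite strand and averaged 5.03 FPKM in cKO and 4.82 FPKM in control. Over the 16 genes the median difference was 0.013, beside 0.032 over all tested genes. It was -0.023 with upper quartile scaling, -0.025 with quantile normalization and -0.015 with a length trend removed. The median over all tested genes in these settings was -0.0004, -0.0021 and 0.0013. The cKO libraries were all above the control libraries for 4 genes, among them Lars2, Tarsl2 and Mars2, and all below for Aars2, beside 27.3% and 13.2% of tested genes. Aars2 averaged 6.41 ± 0.28 FPKM in cKO and 6.86 ± 0.14 FPKM in control (SD, n = 3 each), with an adjusted p of 0.24.

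The mitochondrial genes outside the rule were not called. Ears2 measured 3.099, 3.41 and 3.30 FPKM in cKO libraries, against 2.90, 3.28 and 2.90 FPKM in control libraries, with an adjusted p of 0.37. Pars2 measured 4.54, 4.19 and 3.98 FPKM in cKO libraries, against 4.33, 3.51 and 3.89 FPKM in control libraries, with an adjusted p of 0.39. The genotypes overlapped for both genes.

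The genes next to the synthetases in the path from tRNA to ribosome mostly did not pass the test. None of 5 genes of cytosolic tRNA delivery was called, beside 19.1% of all tested genes. Lists of 3 to 10 genes are too short to show a share below that. The most abundant of the 5 was Eef1a1, the elongation factor that carries charged tRNA to the ribosome. It averaged 2799 FPKM in cKO and 3030 FPKM in control, with an adjusted p of 0.31. The authors' comparison called Eef1a1 and Eef1d lower, with log2 fold changes of -0.17 and -0.15, and none of the other genes of this list. Its background was 13.4% lower. Eef1d was named after its values were seen. None of 10 mitochondrial delivery and translation factors was called. Tufm, the mitochondrial counterpart of Eef1a1, averaged 36.7 ± 2.1 FPKM in cKO and 41.1 ± 1.8 FPKM in control (SD, n = 3 each), with an adjusted p of 0.077. The authors' comparison called Tufm lower, with a log2 fold change of -0.22. None of the 3 amidotransferase subunits was called, with Gatc, the most abundant, at 29.6 FPKM in cKO and 31.8 FPKM in control.

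Of 26 tested genes of proofreading and tRNA end processing, Pop4 fell and Prorsd1 rose, beside 5.74% lower and 13.4% higher over all tested genes. Pop4, a subunit of RNase P, the enzyme that trims the 5′ end of tRNA precursors, measured 14.3, 15.8 and 17.05 FPKM in cKO libraries, against 23.4, 25.1 and 22.4 FPKM in control libraries. The genotypes were well apart: the difference was -0.56 ± 0.07 (SE) with an adjusted p of 0.0022, and it was called with each library left out in turn. Prorsd1, a relative of the editing domain of prolyl-tRNA synthetase, averaged 3.63 FPKM in cKO and 2.79 FPKM in control, with an adjusted p of 0.047. It was not called without cKO replicate 1 or 3 or control replicate 2 or 3, with adjusted p between 0.10 and 0.13. Prorsd1 was also the 1 called gene among 5 tested homologues of synthetases outside the rule.

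The ATF4 and amino acid response list held 32 genes, of which 27 were tested, 6 rose and 3 fell, beside 13.4% higher and 5.74% lower over all tested genes. The median was 0.061, beside 0.032 over all tested genes. The 5 called members with the smallest p were all higher in cKO. Sesn2, a stress-induced sensor of leucine, measured 8.23, 8.15 and 7.13 FPKM in cKO libraries, against 3.92, 4.39 and 3.85 FPKM in control libraries. The difference in log2(FPKM + 1) was 0.81 ± 0.07 (SE), with an adjusted p of 0.00061 in limma. The arginine and lysine transporter gene Slc7a1 averaged 22.9 ± 0.93 FPKM in cKO and 17.1 ± 0.37 FPKM in control (SD, n = 3 each). Slc7a5, a transporter of large neutral amino acids, averaged 142 ± 5.3 FPKM in cKO and 117 ± 3.8 FPKM in control (SD, n = 3 each). Jdp2, a repressor of the AP-1 family, averaged 3.15 FPKM in cKO and 2.11 FPKM in control, and Cebpg, a partner of ATF4, 12.0 FPKM in cKO and 9.80 FPKM in control. All 5 were called with each library left out in turn. Sesn2 is also a known p53 target, and in these libraries the endothelial marker sums moved with genotype as given above. The part of ATF4, of p53 or of endothelial cells in the changes of these genes was not tested.

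The transcript of Atf4 itself, named after its values were seen, fell. It measured 78.0, 79.8 and 80.3 FPKM in cKO libraries, against 89.0, 100 and 100 FPKM in control libraries. The cKO libraries were close together below all control libraries, and control replicate 1 was the nearest. The difference was -0.28 ± 0.05 (SE) with an adjusted p of 0.013, and the adjusted p was 0.050, just over the threshold, without control replicate 2. ATF4 is known to be regulated mainly in translation, which was not measured. Asns, the asparagine synthetase gene and a classic ATF4 target, also named after its values were seen, averaged 13.3 FPKM in cKO and 14.2 FPKM in control with an adjusted p of 0.30. The called genes of this list thus lay in both directions.

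Of the 5 synthetase genes whose promoters hold the ATF4 response core, none was called, beside 19.1% of all tested genes. A list of 5 genes is too short to show a share below that. The differences of these 5 were between -0.11 (Gars) and 0.0087 (Yars). The authors' comparison called Gars and Iars lower. The libraries of 4 overlapped between genotypes, and those of Iars were all lower in cKO. Aars shares 1326 identical transcript bases in GENCODE M21 with Exosc6, another protein-coding gene. Among the 9 genes of the eIF2 kinases and eIF2, Impact, an inhibitor of GCN2 activation, averaged 8.10 FPKM in cKO and 6.98 FPKM in control with an adjusted p of 0.028. Eif2ak2, the kinase PKR, averaged 3.27 FPKM in cKO and 2.54 FPKM in control with an adjusted p of 0.033. Both rose, 2 of 9 beside 13.4% of all tested genes called higher. Leaving out any library other than control replicate 1 ended either call, with adjusted p of 0.053 to 0.11 for Impact and 0.052 to 0.098 for Eif2ak2.

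**Figure D4:**
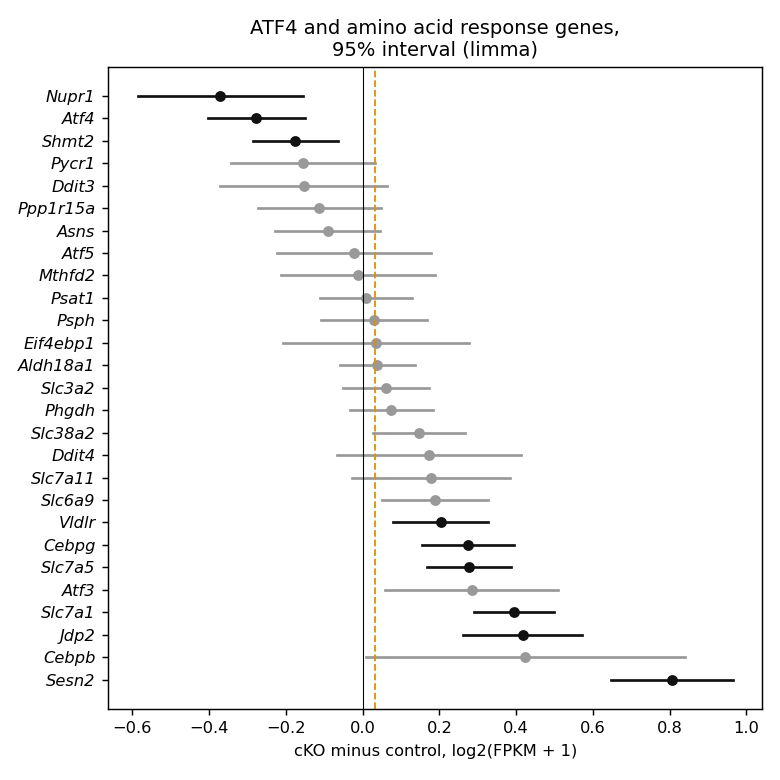
Difference between genotypes of the 27 tested genes of the ATF4 and amino acid response list, cKO minus control in log2(FPKM + 1) units, with the 95% interval from limma; black marks called genes, and the dashed line the median of all tested genes. Sesn2 is at 0.81 and Atf4 at -0.28, with 6 called genes above 0 and 3 below.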

How the data were processed

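The authors deposited 1 table for P3 with FPKM values of 31091 genes in 3 cKO and 3 control libraries, per the file headers. The cKO columns carry another prefix than WT and were assigned by elimination. Per the submitters' processing notes, cutadapt 1.9, HISAT2 2.2.1, StringTie 2.1.6, DESeq2, edgeR and mm10 were used, with no role given. Use of strand is not given in the sources used here. Multiplied by the deposited length, 100% of values came out as whole reads within 0.02 reads, giving the depths (29119803 to 52961445 reads). Floors cover counting error only, and the printed intervals are limma's, from the spread between libraries. The table also holds the authors' comparison: a mean signal, a log2 fold change, a test score and p-values, per the file headers. Replicates differed by more than counting noise (chi-square per degree of freedom 4.38 to 9.71), so none was counted as a duplicate.

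Tests used limma 3.58.1 in R 4.3.3 on log2(FPKM + 1) with an intensity trend and no covariates, for the 13538 genes whose mean reached 1 FPKM, and an exact permutation test for Znhit3. Positions are as deposited. They equalled GENCODE M21 (GRCm38) in 1 of 36 members, so their build is not stated, and promoter coordinates are GRCm38.p6. At their deposited positions 10 members overlap another gene of at least 1 FPKM. The members and lists were chosen with earlier results of these data known. Every gene matched by the rule could be named. Values per library were given for called members and for the 3 most abundant members of either set that were not called, and of each companion list up to 5 called genes by smallest p, or the most abundant where none was called. Genes outside this are said to be named after their values were seen, which also holds for Mfap4, Hars, Sars, Mars1 and Aars2. The values of 1 member are not reported here, and the counts and medians of its set include it. The alternatives were another pseudocount (0.1), no filter, a mean of at least 5 FPKM, TPM, quantile and upper quartile scaling, no intensity trend, array weights, a replicate block, protein-coding genes only, voom on recovered reads, removal of a length trend and each library left out. Counting Tarsl2 as cytosolic was added after seeing the data. No set test was run.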

Additional observations from a re-analysis of the deposited data

How the results depend on the processing

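The 2 cytosolic calls became 1 with no filter on low values, 1 with TPM scaling (Dars, higher) and 4 with a length trend removed, and lay between 0 and 3 with a library left out. With quantile normalization the 2 calls were Cars, lower, and Dars, higher. With array weights, voom or protein-coding genes only there were 3, with Dars higher. Dars was thus called higher in 5 of the 12 alternatives that kept all libraries. The 2 calls of the second set became 0 with no filter, with quantile normalization and with a length trend removed, 1 with upper quartile scaling and 1 with Tarsl2 counted as cytosolic, and lay between 0 and 2 with a library left out. At a mean of at least 5 FPKM the count was 0 of the 9 genes left, because Tarsl2 and Mars2 were below that level and not tested. The cytosolic median of -0.046 was -0.082 with upper quartile scaling, -0.0088 with TPM scaling and -0.10 with a length trend removed, and ranged from -0.088 to -0.020 with a library left out. The second set's median of 0.013 was -0.023 with upper quartile scaling, -0.025 with quantile normalization, 0.053 with TPM scaling, 0.046 with array weights and -0.015 with a length trend removed, and ranged from 0.0037 to 0.062 with a library left out. The median over all tested genes, 0.032, moved too. It was -0.0004 with upper quartile scaling, -0.0021 with quantile normalization, 0.075 with TPM scaling, 0.036 with array weights and 0.0013 with a length trend removed. In these settings the medians of both sets lay below it, except that of the second set with array weights. Calls over all genes, 2590 with 70.0% higher, were 1271 with no filter and between 1207 and 2195 with a library left out. The share higher was 53.7% with upper quartile scaling, 57.1% with quantile normalization, 81.7% with TPM scaling and 56.9% with a length trend removed. The 14 genes called in the companion lists were 7 with no filter, 22 with array weights and 22 with voom, and between 7 and 13 with a library left out. No called member changed sign under any alternative, while 17 of the 32 others did. The called members were picked for differences far from 0 in these same libraries, so this contrast cannot speak for the calls. Among the members described, Nars turned to 0.034 with quantile normalization and 0.021 with TPM scaling. Hars2 turned to -0.013 with upper quartile scaling, -0.0091 with quantile normalization and -0.012 with a length trend removed, and ranged from -0.030 to 0.079 with a library left out. Rars2 turned to -0.033 with upper quartile scaling, -0.020 with quantile normalization, -0.049 with array weights and -0.0082 with voom, and ranged from -0.026 to 0.046 with a library left out. The cause of these changes was not tested.

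With the replicate number as a replicate block, 1542 genes were called, with 0 cytosolic members, 0 of the second set and 7 companion genes. The deviations of same-numbered libraries correlated at -0.024, 0.036 and -0.097, and those of differently numbered libraries at -0.080 to 0.11. With 3 libraries per genotype these values cannot decide whether the numbers pair the libraries.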
